A study of Mus musculus with 60 samples.

Results

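Islet gene expression was compared between mice in which MYC had been switched on (MycON) and mice in which it had not (MycOFF) 16 hours after treatment, in 9 of the 60 Affymetrix arrays of a time course with 5 times. The arrays were chosen by their labels alone: 4 MycON and 5 MycOFF arrays of 16 hours were used, and 3 further arrays of that time were left out because the submitters had dropped them. All mice were males on a CBA-C57BL/6 background and carried the pIns-MYCERTAM transgene. Beta cells of these mice make, under an insulin promoter, MYC joined to an altered oestrogen receptor domain, and 4-hydroxytamoxifen switches the joined protein on. MycON mice received 1 mg of 4-hydroxytamoxifen per day by intraperitoneal injection and MycOFF mice received peanut oil. Within each condition some mice also received exendin-4 (exenatide, an agonist of the GLP-1 receptor) at 50 µg/kg under the skin in 2 injections a day, and the others water, starting 2 days earlier. The 4 groups thus held 2 arrays (MycON with exendin-4), 2 arrays (MycON with water), 3 arrays (MycOFF with exendin-4) and 2 arrays (MycOFF with water). The labels disagree on age, with 8 to 12 weeks in the sample fields and 3 months in the treatment protocol. Islets were collected by laser capture from frozen sections 15 µm thick, and each array took 6 µg of RNA. None of the groups lacked the fusion and received 4-hydroxytamoxifen, so the effects of MYC and of the drug cannot be told apart.

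MYC is a transcription factor that pairs with MAX on the E-box sequence CACGTG and raises genes for ribosome production, nucleotide synthesis and cell division. Adult beta cells divide rarely, and mice of this kind are known for beta cells that enter the cell cycle and later die when the fusion is activated. A dividing cell first licenses its replication origins, then copies its DNA with the help of E2F-driven genes, and then builds a spindle with cyclin B, Aurora kinases and kinetochores, until the anaphase-promoting complex (APC/C) ends mitosis.

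The deposited values are deviations: each is the log2 value of a probe set minus its own median over the 60 arrays, and absolute levels cannot be read. Differences are MycON minus MycOFF at 16 h with the injection as a covariate, on the log2 scale, with their standard error (±), over 4 against 5 arrays. Adjusted p-values of genes are from limma with Benjamini-Hochberg adjustment over 13176 genes, and a gene is said to rise or fall when its adjusted p was under 0.05. The labels call the arrays biological replicates and do not tie them to animals, so the p-values measure the spread between arrays. That spread was estimated over all 52 kept arrays, with 6 residual degrees of freedom from 16 h and 27 from the other times. Array values are listed in a fixed order: MycON exendin-4 replicates 1 and 3, MycON water replicates 1 and 2, MycOFF exendin-4 replicates 1, 2 and 3, and MycOFF water replicates 2 and 3. The switch acts on the fusion protein, so Myc mRNA is no check of the labels, and the probe sets of Myc did not pass the filter on spread. Islet identity could not be checked from levels. The mean deviation of 8 alpha, delta and PP cell markers lay between -1.06 and 1.23 in the 9 arrays. One array, MycOFF exendin-4 replicate 3, stood apart, with a standard deviation over probe sets of 0.946 against 0.371 to 0.529 in the other 8 arrays, and values without it are given beside the main counts and several of the lists.

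Genes of cell division rose in MycON islets. Of 13176 genes 310 passed the threshold (2.35%), 278 of them higher (2.11%) and 32 lower (0.243%) with MYC on, against 2191 genes (16.6%) with an unadjusted p under 0.05. The median difference of all genes was 0.042, and 52.8% of genes lay above 0. The 12 lists of cell cycle genes held 214 tested genes, of which 88 (41.1%) rose and 0 fell, with a median difference of 1.64. The lists were chosen with earlier results of these data known, so this share is a description and not a test. Of the 278 genes that rose, 103 belonged to any of the 44 gene lists and 175 to none. MycON and MycOFF arrays did not overlap in 181 of the 278 genes that rose and 16 of the 32 that fell. Over all tested genes the 4 MycON arrays lay above the 5 MycOFF arrays in 3.3% and below them in 1.56%.

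The count of 310 depended on single arrays and on the spread borrowed from the other times. It was 181 without MycOFF exendin-4 replicate 3, 100 without MycON water replicate 1, 134 without MycON exendin-4 replicate 3, 106 without MycOFF water replicate 3 and 725 without MycOFF exendin-4 replicate 2. A fit of the 9 arrays alone, with no other times to estimate the spread, called 15 genes, 13 of them among the 310. The median residual standard deviation of a gene was 0.532 at 16 h and 0.527 at the other times.

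**Figure D1:**
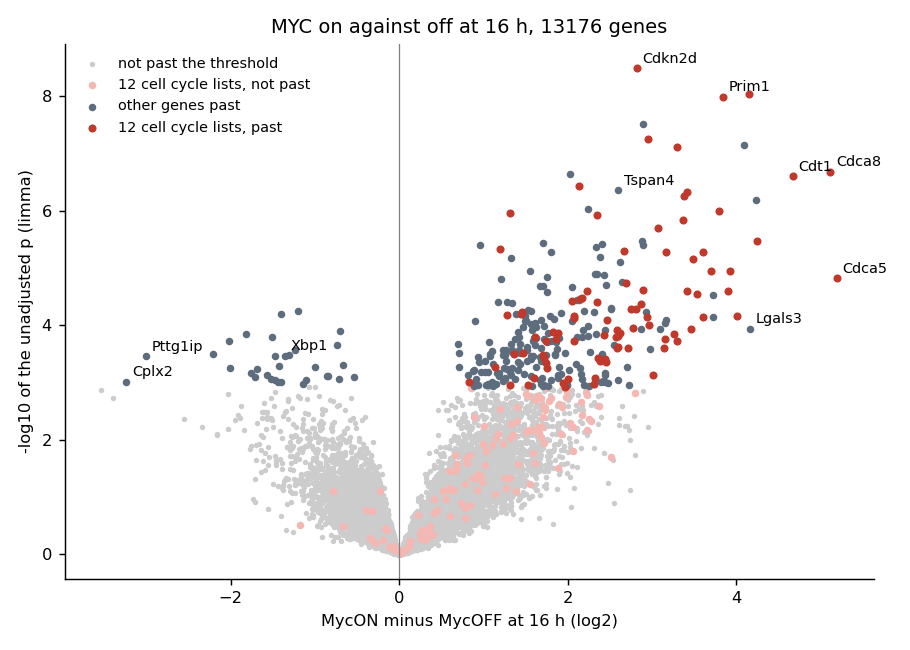
Each point is 1 of the 13176 genes tested at 16 h; the x axis is the log2 difference MycON minus MycOFF and the y axis is -log10 of the unadjusted limma p. Red points mark members of the 12 cell cycle lists past the threshold (88 genes, all to the right of 0), pale red points the members not past it, dark grey points other genes past it and light grey points the rest.

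Most of the 12 largest rises were in genes of cell division and DNA replication. Cdca5 encodes sororin, which keeps sister chromatids together until anaphase. Its array values were 0.86, 4.08, 5.32 and 2.96 in the MycON arrays and -0.70, -3.72, -3.27, 0.62 and -3.12 in the MycOFF arrays. The MycON arrays all lay above the MycOFF arrays, with MycON exendin-4 replicate 1 the lowest of the MycON arrays, and the difference was 5.19 ± 1.04 (adjusted p = 0.00437), or 36.6-fold. Cdca8 encodes borealin of the chromosomal passenger complex, and its values were 1.37, 3.82, 4.78 and 2.20 in the MycON arrays and -3.56, -2.46, -2.37, -0.14 and -2.44 in the MycOFF arrays. The groups were again separate, and the difference was 5.12 ± 0.80 (adjusted p = 0.000329). For Cdt1, the factor that loads the MCM helicase on origins, the values were -0.43, 2.28, 2.67 and 0.36 in the MycON arrays and -1.64, -1.98, -5.42, -3.34 and -4.72 in the MycOFF arrays. Here the MycOFF arrays spread widely while all of them stayed below the MycON arrays, and the difference was 4.67 ± 0.74 (adjusted p = 0.000329). Ncaph, of the condensin I complex, differed by 4.24 ± 0.77 (adjusted p = 0.00194). The mitotic kinase gene Pbk differed by 4.23 ± 0.70 (adjusted p = 0.000568), and Cenpk of the inner kinetochore by 4.14 ± 0.56 (adjusted p = 4.49e-05). Calls of these 6 genes were kept when any single array was left out. All 6 were lost in a fit of the 9 arrays of 16 h alone. Between Pbk and Cenpk in size stood Lgals3, a macrophage marker described with that list, which rose by 4.17 ± 0.96 (adjusted p = 0.0132); its call was lost without either of 2 single arrays.

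**Figure D2:**
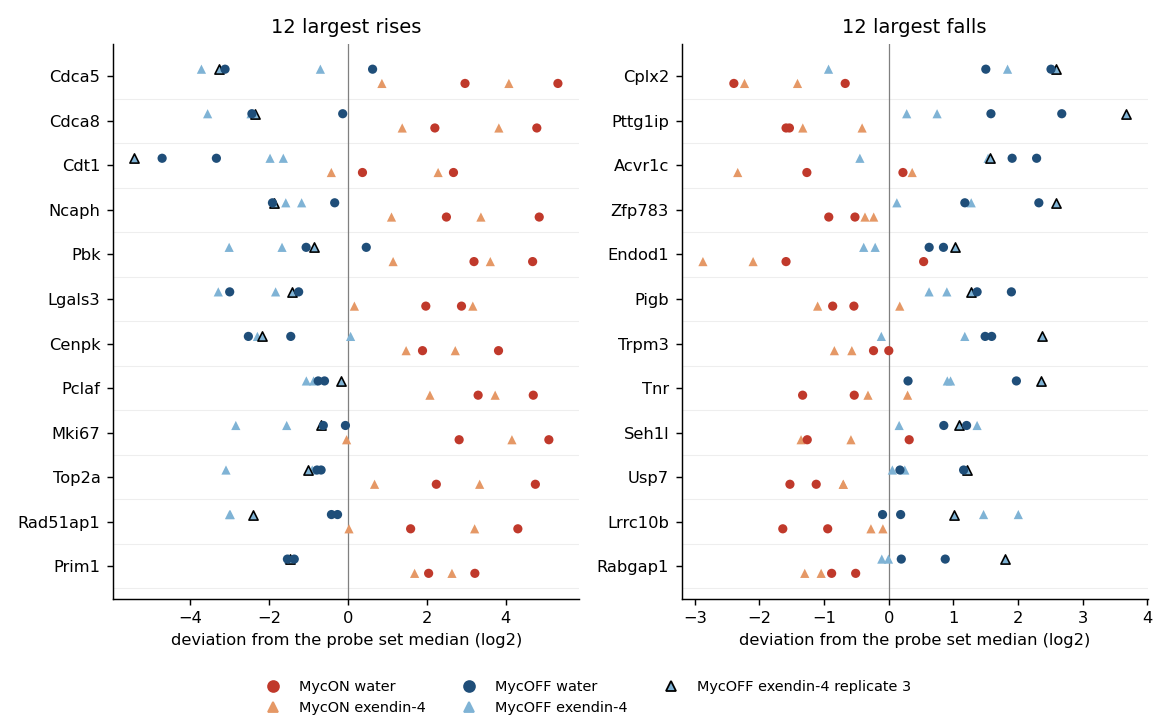
Deviation of each gene from its probe set median (log2, x axis) in each of the 9 arrays, for the 12 genes with the largest rises (left) and the 12 with the largest falls (right). Red circles and orange triangles are MycON arrays with water and exendin-4, blue circles and light blue triangles MycOFF arrays, and the black outline marks MycOFF exendin-4 replicate 3. MycON and MycOFF arrays are separate for all 12 rises shown, whereas 6 of the 12 falls overlap.

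Genes that license replication origins rose in MycON islets, and others of the list lay above 0 without passing. In the list DNA replication licensing, 8 of 19 tested genes rose, 0 fell and all 19 differences were above 0, with a median of 1.71. The 8 were Cdt1, Gmnn, Mcm3, Mcm6, Mcm7, Orc6, Dbf4 and Gins2. Mcm3 and Mcm6 encode subunits of the ring-shaped helicase that opens DNA. Mcm6 had array values of 0.0044, 1.89, 3.09 and -0.092 in the MycON arrays and -2.69, -2.06, -0.91, -0.90 and -2.32 in the MycOFF arrays, all MycON arrays above all MycOFF arrays, and a difference of 2.96 ± 0.68 (adjusted p = 0.0125). Mcm3 differed by 2.94 ± 0.65 (adjusted p = 0.0103). The remaining helicase subunits tested were Mcm7, which rose by 1.82 (adjusted p = 0.0141), and Mcm2, Mcm4 and Mcm5, with differences of 2.23, 1.61 and 2.79 and adjusted p-values of 0.122, 0.0684 and 0.0589. Gmnn encodes geminin, the inhibitor that binds Cdt1 and prevents a second round of licensing, and it rose beside Cdt1, by 2.81 ± 0.61 (adjusted p = 0.00955). Gins2, a subunit of the GINS complex that travels with the helicase, rose by 1.45 ± 0.32 (adjusted p = 0.0101).

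The licensing calls other than Cdt1 rested in part on MycON exendin-4 replicate 3, MycON water replicate 1 and MycOFF water replicate 3, without which 2, 1 and 2 members of DNA replication licensing were called. Mcm6 lost its call without MycON exendin-4 replicate 3 (adjusted p = 0.0807), without MycON water replicate 1 (adjusted p = 0.0878) and without MycOFF water replicate 3 (adjusted p = 0.0721). Mcm3 lost it without MycON exendin-4 replicate 3 (adjusted p = 0.0794) and without MycON water replicate 1 (adjusted p = 0.0771), and Gmnn without MycON water replicate 1 (adjusted p = 0.0715) and without MycOFF water replicate 3 (adjusted p = 0.0754). Gins2 lost it without MycON exendin-4 replicate 3 (adjusted p = 0.058), without MycON water replicate 1 (adjusted p = 0.0801) and without MycOFF water replicate 3 (adjusted p = 0.0518). The list median stayed between 1.39 and 2.29 over these and the other single arrays left out.

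Replication fork genes rose in the same arrays. In the list DNA replication fork, 14 of 28 tested genes rose, 0 fell and all 28 differences were above 0, with a median of 1.75. They spanned the primase subunit Prim1, the polymerase Pole, the sliding clamp Pcna and its loaders Rfc2 and Rfc4. Also among them were the single-strand binding proteins Rpa1, Rpa2 and Rpa3, Fen1, which trims Okazaki fragments, and Lig1, which joins them. Prim1 had array values of 1.69, 2.63, 3.21 and 2.04 in the MycON arrays and -1.51, -1.46, -1.47, -1.37 and -1.54 in the MycOFF arrays. These groups lay far apart with little spread among the MycOFF arrays, and the difference was 3.84 ± 0.52 (adjusted p = 4.49e-05). The call of Prim1 was kept in all 21 alternative settings tried (highest adjusted p 0.0406). Pcna had values of -0.20, 2.21, 3.38 and 2.13 in the MycON arrays and -1.67, -1.04, -2.17, -1.23 and -1.76 in the MycOFF arrays, again with no overlap, and a difference of 3.37 ± 0.58 (adjusted p = 0.000947). Pclaf, which encodes a partner of the clamp, rose by 4.09 ± 0.61 (adjusted p = 0.000147). Uhrf1, which carries DNA methylation through replication, rose by 2.87 ± 0.61 (adjusted p = 0.00818), and Pole by 2.69 ± 0.55 (adjusted p = 0.00511) although its groups overlapped. Both Uhrf1 and Pole lost their calls when MycON exendin-4 replicate 3 (adjusted p = 0.0824 and 0.0667) or MycON water replicate 1 (0.0594 and 0.053) was left out. Without those arrays 2 and 2 members of DNA replication fork were called, and 5 without MycOFF water replicate 3 and 9 without MycOFF water replicate 2.

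A few genes for DNA precursors rose. In the list nucleotide precursors, 3 of 18 tested genes rose, 0 fell and 16 lay above 0, with a median of 1.12. Rrm1, the large subunit of ribonucleotide reductase, had values of 1.15, 2.73, 3.23 and 1.58 in the MycON arrays and -1.66, -0.90, -1.34, -0.87 and -1.44 in the MycOFF arrays and differed by 3.38 ± 0.56 (adjusted p = 0.00051), with no overlap and no call lost to a single array. Its partner subunit Rrm2 had values of 0.90, 1.64, 2.86 and 0.16 in the MycON arrays and 0.038, -1.75, 0.40, 0.43 and 0.58 in the MycOFF arrays. Those groups overlapped, and the difference of 1.39 ± 0.76 (adjusted p = 0.362) did not pass. The contrast between the subunits depended on the probe set. Another probe set of Rrm2 past the filter on spread differed by 1.86 ± 0.56, and another of Rrm1 by -0.115. Paics of purine synthesis rose by 1.36 ± 0.34 (adjusted p = 0.0229) and the thymidine kinase gene Tk1 by 1.97 ± 0.56 (adjusted p = 0.0498), close to the threshold. Paics lost its call without MycON exendin-4 replicate 3 (adjusted p = 0.0824), without MycON water replicate 1 (adjusted p = 0.104), without MycOFF exendin-4 replicate 3 (adjusted p = 0.0929) and without MycOFF water replicate 3 (adjusted p = 0.142). Tk1 lost it without 6 single arrays, with adjusted p-values up to 0.247. Without MycOFF exendin-4 replicate 3 the list had 1 call and a median of 0.9. Dctd, which converts deoxycytidine monophosphate, differed by 0.27 ± 0.31 (adjusted p = 0.657).

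Genes of histones and DNA repair were among those that rose. In the list replication-dependent histones and variants, 3 of 6 tested genes rose and 0 fell. The histone chaperone gene Asf1b rose by 3.60 ± 0.67 (adjusted p = 0.00212), the variant H2az1 by 1.19 ± 0.22 (adjusted p = 0.00211) and the variant H2ax by 2.07 ± 0.50 (adjusted p = 0.0168). H2ax lost its call without MycON exendin-4 replicate 3 (adjusted p = 0.128), without MycON water replicate 1 (adjusted p = 0.0982), without MycOFF exendin-4 replicate 3 (adjusted p = 0.068) and without MycOFF water replicate 3 (adjusted p = 0.0678). In recombination and DNA repair, 4 of 19 rose and 0 fell: Rad51ap1, a gene of homologous recombination, by 3.90 ± 0.81 (adjusted p = 0.00595), Trip13 by 3.60 ± 0.80 (adjusted p = 0.0104), Rad54l by 1.86 ± 0.44 (adjusted p = 0.0159) and Brca1 by 2.31 ± 0.65 (adjusted p = 0.0484). The values of Rad51ap1 were 0.022, 3.21, 4.30 and 1.58 in the MycON arrays and -3.01, -2.99, -2.40, -0.42 and -0.27 in the MycOFF arrays. They did not overlap, and MycON exendin-4 replicate 1 lay nearest to the MycOFF arrays. Rad51ap1 lost its call without MycON exendin-4 replicate 3 (adjusted p = 0.0682) and Trip13 without MycON water replicate 1 (adjusted p = 0.0745). Rad54l and Brca1 overlapped between groups and lost theirs without 4 and 6 single arrays, up to adjusted p-values of 0.116 and 0.237.

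Cyclins of late S phase and mitosis rose, whereas the D-type cyclins did not pass the test. In the list cyclins and kinases, 8 of 17 tested genes rose and 0 fell, with a median of 1.71. Ccna2 encodes cyclin A2, which drives S phase and entry into mitosis. Its values were 1.22, 3.09, 4.77 and 2.09 in the MycON arrays and -0.29, -2.36, -1.22, -0.049 and -0.14 in the MycOFF arrays, and the difference was 3.48 ± 0.66 (adjusted p = 0.00256). Ccnb2, a mitotic B-type cyclin, had values of 1.33, 3.25, 4.40 and 2.80 in the MycON arrays and -0.38, -0.069, 0.062, -0.048 and -0.43 in the MycOFF arrays and a difference of 3.06 ± 0.54 (adjusted p = 0.00128). For both cyclins the MycON arrays lay above all MycOFF arrays, and no single array removed the call. Both calls were lost in the 9 arrays of 16 h alone. Ccne1, the cyclin of the step from G1 to S phase, rose by 2.17 ± 0.46 (adjusted p = 0.00727), Cks2 by 3.46 ± 0.80 (adjusted p = 0.0132) and Cdk1, the kinase of mitosis, by 2.71 ± 0.67 (adjusted p = 0.0201). Cdk1 and Cks2 lost their calls without MycON exendin-4 replicate 3 (adjusted p = 0.137 and 0.0767), MycON water replicate 1 (0.121 and 0.0758) or MycOFF water replicate 3 (0.106 and 0.0754). The cyclin D genes Ccnd1, Ccnd2 and Ccnd3, which act earliest in G1, had differences of -0.28, 1.55 and 0.32 (adjusted p = 0.817, 0.32 and 0.755). Cdk4, their kinase partner, differed by 2.51 ± 1.03 (adjusted p = 0.202). Without each of the 3 arrays just named, 3 members of cyclins and kinases were called.

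A pair of inhibitors of the CDK4 and CDK6 kinases rose with them. Cdkn2d encodes p19INK4d, and its array values were 1.77, 2.23, 3.13 and 2.25 in the MycON arrays and 0.0089, 0.12, -0.98, -0.50 and -1.05 in the MycOFF arrays. The MycON arrays lay above every MycOFF array, and the difference of 2.82 ± 0.36 (adjusted p = 4.3e-05) had the smallest p of all genes tested. Cdkn2c encodes p18INK4c, with values of 1.50, 2.22, 2.57 and 1.45 in the MycON arrays and 1.03, -0.62, -0.57, -0.46 and -0.39 in the MycOFF arrays. One MycOFF array, exendin-4 replicate 1, lay far above the other 4, and the difference was 2.15 ± 0.45 (adjusted p = 0.0076). Cdkn2c lost its call without MycON water replicate 1 (adjusted p = 0.053). The other 5 inhibitors tested did not pass. Cdkn1a, the p21 gene that p53 induces, had values of 0.82, 0.20, 1.10 and 1.50 in the MycON arrays and -2.04, -0.13, -3.65, 0.00049 and -0.61 in the MycOFF arrays; the groups did not overlap, and the difference was 2.06 ± 0.82 (adjusted p = 0.183). Cdkn2a, the gene of p16INK4a and ARF, differed by 0.10 ± 0.31 (adjusted p = 0.879).

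The E2F genes themselves did not pass the test. In the list E2F and retinoblastoma family, 1 of 13 tested genes rose, Rbl1, by 1.88 ± 0.44 (adjusted p = 0.0145), and 0 fell. Rbl1 encodes p107, a relative of the retinoblastoma protein, and it lost its call without MycON water replicate 1 (adjusted p = 0.104) and without MycOFF water replicate 3 (adjusted p = 0.062). E2f1 differed by 0.39 ± 0.50 (adjusted p = 0.697) with overlapping groups, and E2f8 by 2.25 ± 0.74 (adjusted p = 0.0989). The values of E2f8 were 0.04, 3.40, 4.58 and 1.00 in the MycON arrays and -0.26, -0.42, -0.36, 1.04 and -0.41 in the MycOFF arrays, where MycOFF water replicate 2 lay among the MycON arrays. The probe sets of Foxm1 did not pass the filter on spread.

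Of the 44 lists, the spindle list held the highest share of genes that rose. In mitotic kinases and spindle, 24 of 31 tested genes rose and 0 fell, 30 lay above 0 and the median was 2.34. Birc5 encodes survivin, a subunit of the chromosomal passenger complex that also inhibits caspases. Its array values were 1.18, 3.08, 4.67 and 3.09 in the MycON arrays and -0.64, -0.85, -0.015, -0.58 and -0.35 in the MycOFF arrays, and the difference was 3.41 ± 0.56 (adjusted p = 0.000469). Nusap1, which bundles spindle microtubules, had values of 0.35, 4.48, 6.08 and 3.71 in the MycON arrays and -0.36, -0.46, 0.011, -0.13 and -0.31 in the MycOFF arrays and a difference of 3.79 ± 0.64 (adjusted p = 0.000773). Both genes were separate between conditions and kept their calls when any single array was left out. Both lost them in the 9 arrays of 16 h alone and with all 60 arrays. Kifc1, a kinesin that moves to the minus ends of microtubules, rose by 1.32 ± 0.22 (adjusted p = 0.000813). Aurkb, the kinase of the passenger complex, rose by 2.36 ± 0.60 (adjusted p = 0.0241) with overlapping groups, and lost its call without MycON exendin-4 replicate 3 (adjusted p = 0.179), without MycON water replicate 1 (adjusted p = 0.165), without MycOFF water replicate 2 (adjusted p = 0.0695) and without MycOFF water replicate 3 (adjusted p = 0.0808). Fewer members of mitotic kinases and spindle were called without MycON water replicate 1 (5), MycON exendin-4 replicate 3 (6) and MycOFF water replicate 3 (10). Without MycOFF exendin-4 replicate 3 the count was 21, and in the 9 arrays alone it was 0. The list median stayed between 1.64 and 2.85 when single arrays were left out. The rank of the list by share of called genes turned in those settings: condensin, cohesin and cytokinesis held 4 of 21 without MycON water replicate 1 and 7 of 21 without MycOFF water replicate 3, and kinetochore and centromere 6 of 22 without MycON exendin-4 replicate 3.

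Kinetochore genes rose at the centromere and in the outer plate. In kinetochore and centromere, 8 of 22 tested genes rose, 0 fell and all 22 lay above 0, with a median of 1.36. Spc24, of the NDC80 complex that grips microtubules, had values of 0.83, 3.31, 3.38 and 2.75 in the MycON arrays and -0.63, -0.60, -0.82, -0.85 and -0.93 in the MycOFF arrays, with no overlap, and a difference of 3.30 ± 0.49 (adjusted p = 0.000147). Cenpw differed by 2.13 ± 0.34 (adjusted p = 0.000442), and Sgo1, which protects centromeric cohesion, by 2.66 ± 0.50 (adjusted p = 0.00212). The list count ranged from 6 to 14 when single arrays were left out, with 14 without MycON water replicate 2 and 12 without MycON exendin-4 replicate 1. It was 2 in the 9 arrays alone.

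Condensin, cohesin and cytokinesis genes rose in 11 of 21 cases and fell in 0, with a median of 2.35. Top2a encodes the topoisomerase that untangles chromosomes. Its values were 0.67, 3.33, 4.75 and 2.24 in the MycON arrays and -0.91, -3.10, -1.01, -0.79 and -0.69 in the MycOFF arrays, in which MycOFF exendin-4 replicate 2 lay well below the other MycOFF arrays, and the difference was 3.93 ± 0.77 (adjusted p = 0.00378). Mki67 encodes the proliferation antigen Ki-67, with values of -0.039, 4.15, 5.09 and 2.81 in the MycON arrays and -1.56, -2.85, -0.69, -0.069 and -0.63 in the MycOFF arrays. MycON exendin-4 replicate 1 was near the MycOFF arrays and the other 3 MycON arrays were far above, so that the difference was 4.00 ± 0.89 (adjusted p = 0.0103). Mki67 lost its call without MycON exendin-4 replicate 3 (adjusted p = 0.0954) and without MycON water replicate 1 (adjusted p = 0.0617). Racgap1, needed for the cleavage furrow, rose by 2.35 ± 0.40 (adjusted p = 0.000825) and kept its call throughout the single-array omissions. It lost the call in the 9 arrays of 16 h alone and with all 60 arrays. The count in condensin, cohesin and cytokinesis was 4 without MycON water replicate 1, 5 without MycON exendin-4 replicate 3 and 7 without MycOFF water replicate 3.

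Of the APC/C and exit from mitosis list, 2 of 13 tested genes rose and 0 fell. Ube2c encodes the ubiquitin-conjugating enzyme that works with the complex, and its values were 2.50, 2.12, 3.69 and 3.54 in the MycON arrays and -0.14, -0.37, 0.22, -0.0074 and 0.018 in the MycOFF arrays. The MycON arrays lay above all MycOFF arrays, and the difference was 2.95 ± 0.43 (adjusted p = 0.000147). Cdc20, the activator of the complex in mitosis, rose by 3.16 ± 0.75 (adjusted p = 0.0159), and lost its call without MycON exendin-4 replicate 3 (adjusted p = 0.0905), without MycON water replicate 1 (adjusted p = 0.0712) and without MycOFF water replicate 3 (adjusted p = 0.0688). The core subunits Anapc1, Anapc4, Cdc16, Cdc23 and Cdc27 had differences between 0.072 and 0.60, none past the test. The list count was 1 without each of the 3 arrays named for Cdc20 and 4 without MycOFF exendin-4 replicate 2.

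Among the MycON arrays the cell cycle genes did not respond evenly. MycON water replicate 1 was the highest of the 4 MycON arrays in 165 of the 214 genes, and MycON exendin-4 replicate 1 was the lowest in 138. The mean of mitotic kinases and spindle was 0.354 and 2.45 with exendin-4 and 3.75 and 1.54 with water in the MycON arrays, and -0.371, -0.627 and -0.116 with exendin-4 and -0.0879 and -0.214 with water in the MycOFF arrays. The MycON arrays had the same order in DNA replication fork, where the means were 0.197 and 1.72 with exendin-4 and 2.71 and 0.857 with water in the MycON arrays, and -0.408, -0.541 and -0.647 with exendin-4 and -0.361 and -0.632 with water in the MycOFF arrays. MycON exendin-4 replicate 1 was also the array with the highest macrophage marker mean, 2.06, and a high acinar marker mean, 2.33, and the part of these in the lower cell cycle values was not tested. In bulk islets a smaller number of responding cells and less RNA per cell cannot be told apart.

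**Figure D3:**
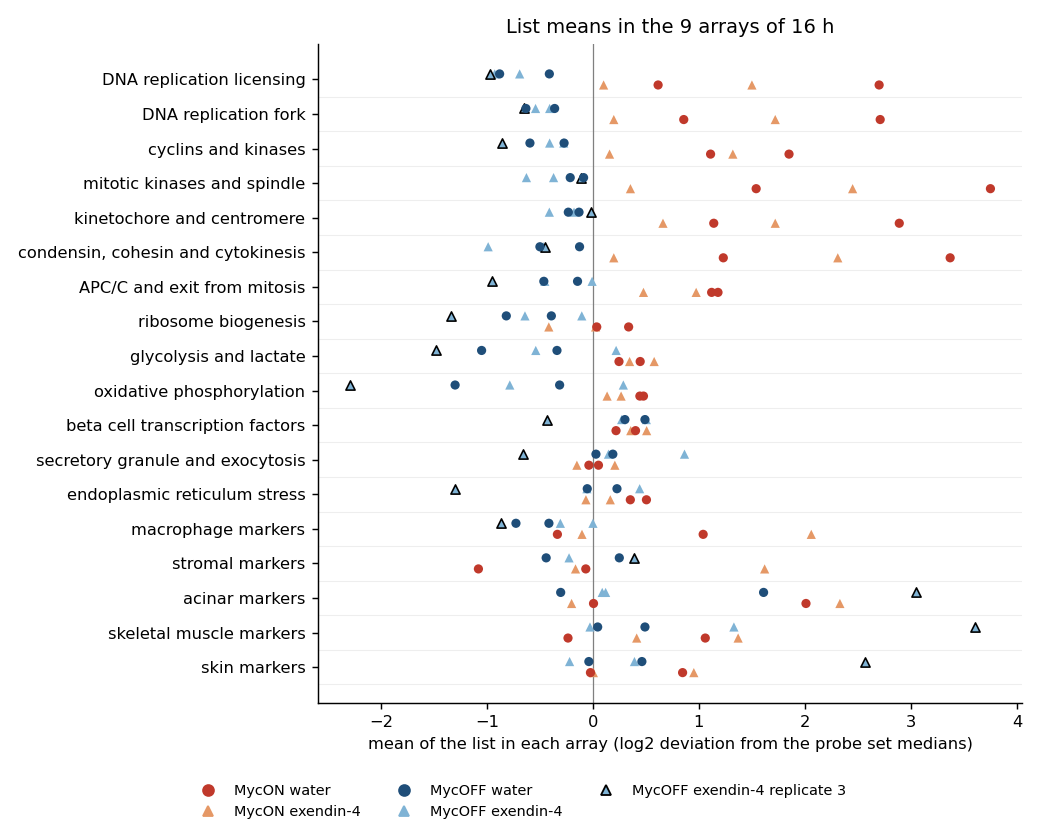
Mean deviation (log2, x axis) of the tested members of each list in each of the 9 arrays of 16 h; colours and shapes are as in the plot of single genes, and the black outline marks MycOFF exendin-4 replicate 3. The MycON arrays lie to the right of the MycOFF arrays in the 7 cell cycle lists drawn (of those not drawn, nucleotide precursors and E2F and retinoblastoma family overlapped), whereas that outlined array lies far to the left of the others for oxidative phosphorylation (-2.29).

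Promoter sequences are shown for 7 genes that rose, because TTTGAA and forms of the E2F site were found at different shares in promoters of mitosis and replication genes, while CCAAT was frequent in both. The 7 genes were picked by hand as examples. Each holds TTTGAA or a form of the E2F site, so they do not reflect how frequent these motifs were. Each runs from 250 bases before to 50 bases after a transcription start in RefSeq (GRCm38.p6), is written 5′ to 3′ on the strand of the gene, and has motif matches in capitals. The motifs searched on both strands were the E-box CACGTG, the CCAAT box, the cell cycle homology region TTTGAA or TTCGAA, and TTTGGCGC, TTTCCCGC and TTTCGCGC as forms of the E2F site. The first 4 are from mitotic genes: Cdca8 at chr4:124936868-124937167 (minus strand), Mki67 at chr7:135716330-135716629 (minus strand), Ccnb2 at chr9:70421505-70421804 (minus strand) and Cdca5 at chr19:6084847-6085146 (plus strand). The other 3 are from licensing genes: Cdt1 at chr8:122567765-122568064 (plus strand), Mcm3 at chr1:20820263-20820562 (minus strand) and Mcm6 at chr1:128359656-128359955 (minus strand).
Cdca8: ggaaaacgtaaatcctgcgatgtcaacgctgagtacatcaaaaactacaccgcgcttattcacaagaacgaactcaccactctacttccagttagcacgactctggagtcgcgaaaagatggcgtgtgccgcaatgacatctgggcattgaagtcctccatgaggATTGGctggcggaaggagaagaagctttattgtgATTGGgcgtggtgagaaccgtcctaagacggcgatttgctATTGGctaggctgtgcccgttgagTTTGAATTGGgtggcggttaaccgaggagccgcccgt
Mki67: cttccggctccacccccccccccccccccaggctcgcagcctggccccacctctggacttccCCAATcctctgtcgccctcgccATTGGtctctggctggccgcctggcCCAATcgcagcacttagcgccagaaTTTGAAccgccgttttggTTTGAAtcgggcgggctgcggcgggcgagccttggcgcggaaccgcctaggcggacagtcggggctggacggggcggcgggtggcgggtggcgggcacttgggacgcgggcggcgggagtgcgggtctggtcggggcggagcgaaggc
Ccnb2: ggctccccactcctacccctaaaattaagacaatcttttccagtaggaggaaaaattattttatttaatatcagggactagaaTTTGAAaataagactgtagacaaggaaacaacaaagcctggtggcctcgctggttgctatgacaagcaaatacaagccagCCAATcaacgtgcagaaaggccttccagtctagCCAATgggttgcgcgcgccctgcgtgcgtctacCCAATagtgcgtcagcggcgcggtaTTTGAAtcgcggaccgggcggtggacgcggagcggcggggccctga
Cdca5: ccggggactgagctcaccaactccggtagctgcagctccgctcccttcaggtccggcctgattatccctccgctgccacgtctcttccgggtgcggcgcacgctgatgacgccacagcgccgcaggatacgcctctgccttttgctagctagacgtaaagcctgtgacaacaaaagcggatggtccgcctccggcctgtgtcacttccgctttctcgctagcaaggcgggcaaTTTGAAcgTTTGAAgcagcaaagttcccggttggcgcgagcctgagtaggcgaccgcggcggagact
Cdt1: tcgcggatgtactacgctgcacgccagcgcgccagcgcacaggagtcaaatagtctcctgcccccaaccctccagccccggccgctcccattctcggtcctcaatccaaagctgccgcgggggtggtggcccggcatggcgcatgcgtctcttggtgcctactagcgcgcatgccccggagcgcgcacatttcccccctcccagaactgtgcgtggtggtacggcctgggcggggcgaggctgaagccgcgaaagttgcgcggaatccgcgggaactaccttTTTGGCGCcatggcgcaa
Mcm3: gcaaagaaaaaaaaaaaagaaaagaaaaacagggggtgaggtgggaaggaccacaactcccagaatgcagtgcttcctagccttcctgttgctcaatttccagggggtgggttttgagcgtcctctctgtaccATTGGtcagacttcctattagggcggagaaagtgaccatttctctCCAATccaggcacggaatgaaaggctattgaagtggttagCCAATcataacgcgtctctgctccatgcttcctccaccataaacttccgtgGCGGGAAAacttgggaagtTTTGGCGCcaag
Mcm6: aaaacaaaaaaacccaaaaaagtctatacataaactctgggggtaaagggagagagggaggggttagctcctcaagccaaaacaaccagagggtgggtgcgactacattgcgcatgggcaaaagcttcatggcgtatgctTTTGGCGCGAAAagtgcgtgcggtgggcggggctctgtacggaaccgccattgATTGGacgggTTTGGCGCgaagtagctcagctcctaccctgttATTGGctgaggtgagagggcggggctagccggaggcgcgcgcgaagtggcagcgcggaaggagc

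The Ccnb2 promoter held 3 CCAAT boxes in the gene's own direction, 87, 54 and 21 bases before the start, and TTTGAA 167 bases before and 4 bases after it. Mki67 held 3 CCAAT boxes and 2 copies of TTTGAA, at 116 and 98 bases before the start. Cdca8 held 4 CCAAT boxes, all on the opposite strand, and 1 TTTGAA, and Cdca5 held 2 copies of TTTGAA without a CCAAT box. Cdt1 held TTTGGCGC 32 bases after the start. In Mcm6, TTTGGCGC at 110 bases before the start overlapped TTTCGCGC on the opposite strand at 106 bases, and another TTTGGCGC lay at 47 bases. Mcm6 also held 2 CCAAT boxes, 57 and 14 bases before the start on the opposite strand. Mcm3 held 3 CCAAT boxes, 117, 72 and 32 bases before the start, and 1 TTTGGCGC and 1 TTTCCCGC after it.

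The share of promoters with each motif was counted and not tested. A promoter was found for 10590 of the 13176 tested genes, some with several starts (13467 promoters). TTTGAA or TTCGAA was in 78.3% of 46 promoters of the risen mitosis genes and 13% of 23 promoters of the risen replication genes, against 14.3% of the promoters of all tested genes. A form of the E2F site was in 6.52% and 34.8% of the same promoters, against 3.11%. CCAAT was in 71.7% and 56.5%, against 37.5%, and CACGTG in 6.52% and 13%, against 9.52%. Among all 32851 promoters in the table the shares were 19.2% for TTTGAA or TTCGAA, 1.84% for the E2F forms, 37.4% for CCAAT and 7.15% for CACGTG. A match describes letters in a window of 300 bases and was not tested as a binding site.

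Few genes differed between 16 h and the other times by the test of that difference. The MYC effect at 16 h minus the mean effect at 4, 8, 32 and 72 h passed in 13 genes (0.0987%), 11 of them larger at 16 h (0.0835%), against 1578 genes at an unadjusted p under 0.05. Cdkn2d had the smallest adjusted p, with MYC effects of -0.41 at 4 h, -0.13 at 8 h, 2.82 at 16 h, -0.57 at 32 h and 0.14 at 72 h, and a difference of 3.06 ± 0.40 (adjusted p = 5.94e-05). At the other 4 times its effect thus lay between -0.57 and 0.14. Pclaf had effects of -0.59 at 4 h, 1.74 at 8 h, 4.09 at 16 h, 0.92 at 32 h and 1.27 at 72 h and a difference of 3.26 ± 0.67 (adjusted p = 0.0376). The difference of Ube2c was 2.28 ± 0.48 (adjusted p = 0.0376). The kinesin genes Kif22 and Kifc1 were larger at 16 h by 1.94 ± 0.40 (adjusted p = 0.0376) and 1.27 ± 0.25 (adjusted p = 0.0376), and the second CDK inhibitor Cdkn2c by 2.31 ± 0.50 (adjusted p = 0.0486). Nudt1, which clears oxidised nucleotides, was larger at 16 h by 1.85 ± 0.34 (adjusted p = 0.0297). The splicing factor gene Hnrnpl was larger by 0.93 ± 0.19 (adjusted p = 0.0376). Of the 13 genes 8 had also risen at 16 h itself.

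The remaining 5 genes of that comparison had not passed at 16 h itself. Ung, which removes uracil from DNA, had MYC effects of 3.10 at 4 h, 3.87 at 8 h, -0.33 at 16 h, 2.51 at 32 h and 1.67 at 72 h, and a difference of -3.12 ± 0.63 (adjusted p = 0.0376). Tmem158 had a difference of -1.96 ± 0.42 (adjusted p = 0.0486). Dhx40, Glb1l2 and Ncald were larger at 16 h by 1.84 ± 0.37 (adjusted p = 0.0376), 2.03 ± 0.42 (adjusted p = 0.0376) and 1.73 ± 0.37 (adjusted p = 0.0486), with effects at 16 h that did not pass on their own (adjusted p = 0.146, 0.219 and 0.155). Those effects were 0.92, 0.90 and 0.91 at 16 h, while the mean effects at the other times were below 0, at -0.93, -1.12 and -0.82. The count of 13 became 1 without MycOFF exendin-4 replicate 3, 2 without MycON water replicate 1, 5 without MycOFF water replicate 3, 32 without MycON exendin-4 replicate 1 and 49 without MycOFF exendin-4 replicate 2. It was 8 without MycON water replicate 2 and 8 without MycOFF water replicate 2.

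The mitosis lists and the replication lists had different medians over time. The 87 tested genes of the 4 mitosis lists had a median MYC effect of -0.21 at 4 h, 0.688 at 8 h, 1.9 at 16 h, 0.179 at 32 h and 0.929 at 72 h. Of these, 85 had a larger effect at 16 h than the mean of the other times, and 3 of the 85 passed the test of that difference (Kif22, Kifc1 and Ube2c). The 47 genes of the 2 replication lists had medians of 0.466, 2.19, 1.74, 1.46 and 0.819 at the same times, with 38 larger at 16 h and 0 past the test. The times are separate sets of arrays, and the order of list medians across times carries no test.

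**Figure D4:**
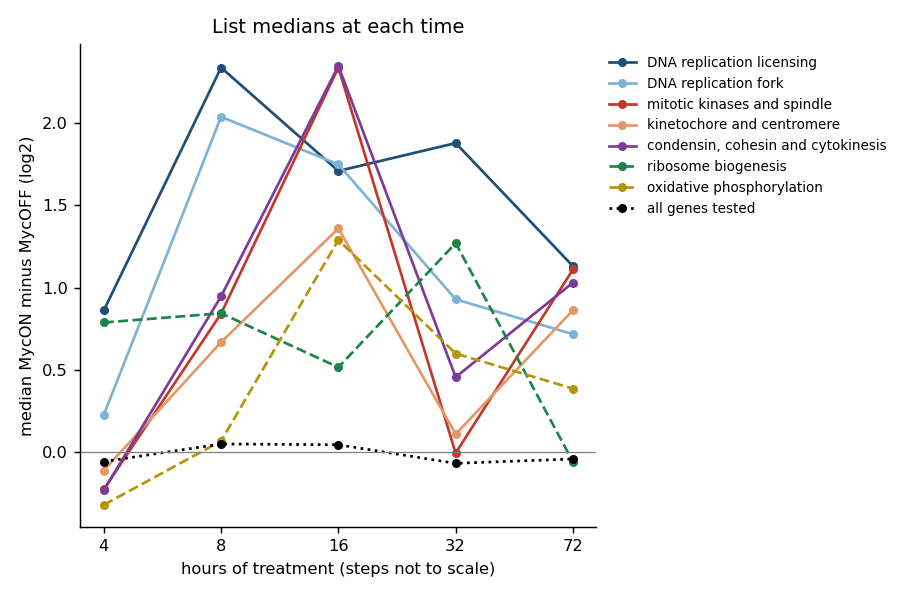
Median MYC effect (MycON minus MycOFF, log2, y axis) over the tested members of 7 lists and over all genes at each of the 5 times (x axis, steps not to scale). The lists of spindle, kinetochore and condensin genes are highest at 16 h (2.34, 1.36 and 2.35), whereas the medians of all genes stay near 0.

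Few of the growth genes that MYC is known for passed the test at this time, when 2.11% of all tested genes rose. In ribosome biogenesis the share was near that of all genes, with 1 of 33 tested genes higher and 0 lower. Of the 33 genes 23 lay above 0, with a median of 0.514, against 0.646 at the other times. Without MycOFF exendin-4 replicate 3, the lowest array of ribosome biogenesis (-1.34), the median was 0.406 with 1 call. The riser was Nhp2, of the particles that modify ribosomal RNA, by 2.44 ± 0.56 (adjusted p = 0.0134), and it lost its call without MycON exendin-4 replicate 3 (adjusted p = 0.0567), without MycON water replicate 2 (adjusted p = 0.0636) and without MycOFF water replicate 3 (adjusted p = 0.0752). Ncl, the nucleolin gene, had values of -0.16, 0.30, 0.12 and 0.39 in the MycON arrays and -3.68, -0.056, -5.40, -0.14 and -3.36 in the MycOFF arrays. MycOFF exendin-4 replicate 2 and MycOFF water replicate 2 lay among the MycON arrays, and the difference was 2.61 ± 0.85 (adjusted p = 0.0978). In RNA polymerase I and III, 0 of 17 genes passed, with Polr1d nearest at 2.90 ± 0.84 (adjusted p = 0.0554). In translation factors, Eef1e1 and Eif4ebp2 rose, 2 of 13, by 1.99 (adjusted p = 0.0485) and 0.93 (adjusted p = 0.0486), and the cap-binding factor gene Eif4e had a difference of 1.50 ± 0.46 (adjusted p = 0.079). Eef1e1 and Eif4ebp2 lost their calls without 6 and 8 single arrays. In the list MYC, MAX and MXD network, 0 of 12 passed and the median was -0.064. Mxd4, nearest to the threshold in the list, differed by -0.63 ± 0.29 (adjusted p = 0.263). Mxi1, which encodes a MAX partner and was not in the list, rose by 1.41 ± 0.36 (adjusted p = 0.0277).

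Metabolic lists other than amino acid transport had medians above 0 with few calls, where 2.11% of all tested genes rose. In serine and one-carbon, 1 of 12 genes rose: Psat1, of serine synthesis, by 2.24 ± 0.51 (adjusted p = 0.0127), and it lost its call without MycON exendin-4 replicate 3 (adjusted p = 0.0914), without MycON water replicate 1 (adjusted p = 0.0971) and without MycOFF water replicate 3 (adjusted p = 0.0533). In glycolysis and lactate, 3 of 16 rose and 14 lay above 0, with a median of 1.2. Without MycOFF exendin-4 replicate 3, where the mean of glycolysis and lactate was -1.48, the median was 0.949 with 1 call. Pdk1, whose product inhibits pyruvate dehydrogenase, had values of -0.14, 1.47, 1.76 and 0.58 in the MycON arrays and -0.66, -0.59, -3.02, -0.36 and -2.63 in the MycOFF arrays. Those groups did not overlap, and the difference was 2.35 ± 0.46 (adjusted p = 0.00405). Slc16a1, the lactate transporter gene that beta cells normally keep low, rose by 1.80 ± 0.50 (adjusted p = 0.0435), and Pgk1 by 1.34 ± 0.33 (adjusted p = 0.0218). Slc16a1 lost its call without 6 single arrays and Pgk1 without 5, up to adjusted p-values of 0.217 and 0.111. In polyamines 0 of 7 passed, with Odc1 at 1.16 ± 0.42 (adjusted p = 0.144). In amino acid transport 0 of 12 passed, 6 lay above 0 and 6 below, and the median was -0.0367.

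Mitochondrial lists moved with the array of widest spread. In oxidative phosphorylation, 20 of 21 tested genes lay above 0 with a median of 1.29, and 1 rose, Ndufa4, by 1.60 ± 0.38 (adjusted p = 0.0157). The list mean was 0.134 and 0.266 with exendin-4 and 0.443 and 0.477 with water in the MycON arrays, and -0.784, 0.287 and -2.29 with exendin-4 and -0.314 and -1.3 with water in the MycOFF arrays. MycOFF exendin-4 replicate 3 was the lowest array and MycOFF exendin-4 replicate 2 lay among the MycON arrays. Without replicate 3 the median of oxidative phosphorylation was 0.869 with 0 calls, and without replicate 2 it was 1.62 with 8 calls. Ndufa4 lost its call without MycON exendin-4 replicate 1 (adjusted p = 0.062), without MycON exendin-4 replicate 3 (adjusted p = 0.064), without MycON water replicate 1 (adjusted p = 0.053), without MycOFF exendin-4 replicate 3 (adjusted p = 0.0676) and without MycOFF water replicate 3 (adjusted p = 0.0911). In mitochondrial chaperones and import, 2 of 21 rose, the import receptor gene Tomm20 by 1.50 ± 0.34 (adjusted p = 0.0111) and the channel gene Timm23 by 0.87 ± 0.23 (adjusted p = 0.0356). Tomm20 lost its call without MycON exendin-4 replicate 1 (adjusted p = 0.0563) and without MycON exendin-4 replicate 3 (adjusted p = 0.0544), and Timm23 without 6 single arrays, up to an adjusted p of 0.151. The mean of mitochondrial chaperones and import was -2.13 in MycOFF exendin-4 replicate 3. Without that array the list had 1 call and a median of 0.806, against 0.987 with it, and without MycOFF exendin-4 replicate 2 it had 6 calls.

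With each injection taken alone the calls were fewer. With water 45 genes passed (0.342%), 42 higher and 3 lower, and 23 of the 45 were in the 12 cell cycle lists. With exendin-4 11 genes passed (0.0835%), all higher, 5 of them in those lists. Both sets held Cenpk, Cdkn2d, Fabp5 and Prim1. The interaction of MYC and injection passed in 0 genes (0%) by limma, and 379 genes had an unadjusted p under 0.05. Members of the 12 cell cycle lists had a median difference of 1.98 with water and 1.32 with exendin-4. Of these 214 genes, 172 were larger with water, whereas 49.9% of all tested genes were larger with exendin-4. Among the MycON arrays, water replicate 1 was the highest in 165 of the 214 and exendin-4 replicate 1 the lowest in 138. With 2 MycON arrays for each injection, an effect of the injection cannot be told apart from that of single arrays. Nusap1 differed by 5.12 ± 0.92 with water and 2.68 ± 0.84 with exendin-4, an interaction of -2.44 ± 1.24. Cdt1 differed by 5.54 ± 1.09 and 3.94 ± 0.99, an interaction of -1.60 ± 1.47. Kifc1 went the other way, with 0.56 ± 0.29 with water and 1.95 ± 0.26 with exendin-4, an interaction of 1.39 ± 0.39. None of these interactions passed after adjustment.

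**Figure D5:**
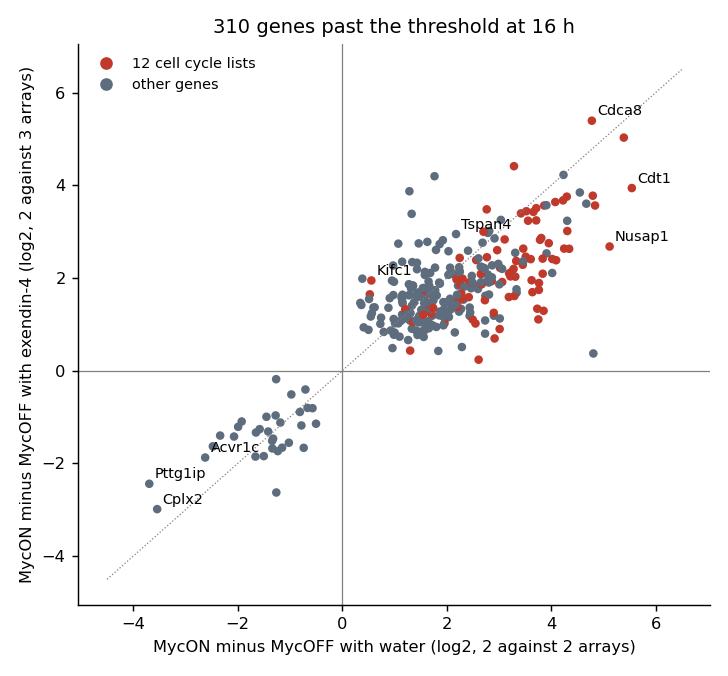
Each point is 1 of the 310 genes past the threshold at 16 h, with the log2 difference MycON minus MycOFF with water on the x axis (2 against 2 arrays) and with exendin-4 on the y axis (2 against 3 arrays). Red points are members of the 12 cell cycle lists, grey points other genes, and the dotted line marks equal differences. The genes were chosen on the difference pooled over both injections, so shared signs follow from the choice; Nusap1 and Cdt1 lie below the line and Kifc1 above it.

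These counts moved with single arrays. The water count was 5 without MycON water replicate 1, 197 without MycON water replicate 2, 28 without MycOFF water replicate 3, and 77 without either of the MycON exendin-4 arrays. The balance of higher and lower water calls moved with the MycOFF water arrays. They were 7 higher and 21 lower without replicate 3, and 27 higher and 17 lower of 44 without replicate 2, against 42 and 3 with both. Leaving out a water array or a MycON exendin-4 array leaves 1 array on that side of the comparison, which the fit assumes to vary like the other groups. The exendin-4 count was 3 without MycOFF exendin-4 replicate 3, 5 without MycOFF exendin-4 replicate 1, 33 without MycON exendin-4 replicate 1, 82 without MycOFF exendin-4 replicate 2 and 140 without MycON exendin-4 replicate 3. It was 21 without either of the MycON water arrays. The interaction count was 39 without MycON exendin-4 replicate 3, 15 without MycOFF water replicate 3, 14 without MycON water replicate 2, 5 without MycON exendin-4 replicate 1 and 1 without MycOFF water replicate 2.

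Beta cell genes did not pass the test at this time, when 2.35% of all tested genes passed. In beta cell transcription factors 0 of 13 tested genes passed, with a median of 0.068. Pdx1, a regulator of beta cell identity, had values of 0.84, 1.11, 0.31 and -0.47 in the MycON arrays and 0.39, 0.78, -0.034, 0.70 and 0.78 in the MycOFF arrays. The groups overlapped fully, and the difference was -0.051 ± 0.34 (adjusted p = 0.947). In beta cell function 0 of 14 passed, with a median of -0.028. Slc2a2, the GLUT2 glucose transporter gene, differed by -0.01 ± 0.39 (adjusted p = 0.991), and the peptide hormone gene Ucn3 by -0.62 ± 0.78 (adjusted p = 0.693). Ins2, an insulin gene, had values of 0.65, 0.75, 0.011 and 0.81 in the MycON arrays and -0.52, -0.011, -2.24, -2.43 and -4.03 in the MycOFF arrays. All MycON arrays lay above all MycOFF arrays, but the difference of 2.54 ± 1.62 (adjusted p = 0.437) did not pass against a standard error that was large. In other islet hormones 0 of 9 passed, with Gcg, the glucagon gene, at 0.18 ± 0.26 (adjusted p = 0.744) and Sst, the somatostatin gene, at 1.35 ± 1.02 (adjusted p = 0.515).

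One exocytosis gene and one gene of the endoplasmic reticulum fell. In secretory granule and exocytosis, 1 of 26 tested genes fell and 0 rose, with a median of 0.047. Cplx2 encodes complexin 2, which clamps and primes the SNARE complex in vesicle fusion. Its values were -1.41, -2.23, -0.67 and -2.40 in the MycON arrays and -0.93, 1.84, 2.59, 1.50 and 2.51 in the MycOFF arrays. The MycON arrays were all below 0, and among the MycOFF arrays only exendin-4 replicate 1 lay within their range. The difference was -3.24 ± 0.90 (adjusted p = 0.045), and at the other times the mean effect was -1.34. The other probe sets of Cplx2 past the filter differed by -0.363 and -0.503. Rab37, a small GTPase gene of secretory vesicles, had a difference of -1.27 ± 0.52 (adjusted p = 0.199) and the SNARE gene Stx1a of -1.32 ± 0.40 (adjusted p = 0.0677). In endoplasmic reticulum stress, 1 of 23 fell, the transcription factor gene Xbp1, with values of -0.33, -0.42, -0.14 and -0.30 in the MycON arrays and 0.87, 1.22, 0.74, 0.66 and 1.73 in the MycOFF arrays. The MycON arrays lay below the MycOFF arrays without overlap, and the difference was -1.36 ± 0.34 (adjusted p = 0.0231). Xbp1 lost its call without MycON exendin-4 replicate 1 (adjusted p = 0.052), without MycON exendin-4 replicate 3 (adjusted p = 0.0783), without MycON water replicate 1 (adjusted p = 0.0687), without MycON water replicate 2 (adjusted p = 0.0598) and without MycOFF water replicate 3 (adjusted p = 0.14). Other probe sets of Xbp1 differed by 0.27, 1.46 and -0.33. Hspa5, the chaperone BiP and a target of this pathway, differed by 0.26 ± 0.42 (adjusted p = 0.763), and Ddit3, the CHOP gene, by 0.49 ± 0.36 (adjusted p = 0.504).

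Genes that fell were few and near the threshold. After Cplx2 the largest falls were Pttg1ip, whose product binds securin, by -3.01 ± 0.76 (adjusted p = 0.0232), and Acvr1c, the ALK7 receptor gene of the TGF-beta family, by -2.21 ± 0.56 (adjusted p = 0.0229). Pttg1ip had values of -1.33, -0.41, -1.59 and -1.54 in the MycON arrays and 0.28, 0.75, 3.68, 1.58 and 2.68 in the MycOFF arrays. These did not overlap, with MycOFF exendin-4 replicate 3 the highest of all arrays. Next came Zfp783 (-2.02), Endod1 (-2.01), Pigb (-1.82), the cation channel gene Trpm3 (-1.76), the tenascin gene Tnr (-1.72), the nucleoporin gene Seh1l (-1.69), the deubiquitinase gene Usp7 (-1.57), Lrrc10b (-1.52) and Rabgap1 (-1.51), with adjusted p-values from 0.0146 to 0.0424. Where these genes had other probe sets past the filter, those differed less than the chosen one. They differed by -0.329 for Acvr1c, -0.202 for Zfp783, -0.459 to -0.0348 for Endod1 and -0.306 to -0.141 for Trpm3. For Pigb they differed by -0.68 and -0.223, and for Rabgap1 by -0.801 to -0.183. Other probe sets of Seh1l differed by -0.405 to 0.466 and those of Usp7 by -0.315 to 0.592, in both cases on both sides of 0. Each of the 12 largest falls lost its call without at least 3 single arrays. MycOFF water replicate 3 ended 11 of the 12 calls (adjusted p 0.0754 to 0.216), all except that of Rabgap1, which ended without MycON exendin-4 replicate 1 (adjusted p = 0.0628), without MycON exendin-4 replicate 3 (adjusted p = 0.058) and without MycOFF exendin-4 replicate 3 (adjusted p = 0.0676). Without MycOFF exendin-4 replicate 3, Cplx2 had an adjusted p of 0.145 and Pttg1ip of 0.102.

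Death and stress lists held few calls, where 2.11% of all tested genes rose and 0.243% fell. In p53 and apoptosis, 2 of 22 tested genes rose, Birc5 (above) and the initiator caspase gene Casp8, by 0.94 ± 0.24 (adjusted p = 0.027), with overlapping groups. Casp8 lost its call without 6 single arrays, up to an adjusted p of 0.154 without MycON exendin-4 replicate 1. In ATF4 and CHOP targets 0 of 17 passed, with Aars nearest at 2.39 ± 0.78 (adjusted p = 0.0958), and in heat shock 0 of 11, with Dnajb1 nearest at 0.94 ± 0.32 (adjusted p = 0.114). In cAMP and immediate early genes, Jun rose, 1 of 21, by 1.72 ± 0.39 (adjusted p = 0.0128), and lost its call without MycON exendin-4 replicate 1 (adjusted p = 0.131), without MycON water replicate 1 (adjusted p = 0.053) and without MycOFF water replicate 3 (adjusted p = 0.0503). In circadian clock 0 of 15 passed (Nfil3 0.59 ± 0.27 (adjusted p = 0.258)) and in cholesterol synthesis 0 of 13 (Hmgcs1 0.78 ± 0.50 (adjusted p = 0.451)).

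A pair of genes with large effects lay outside these pathways. Tspan4, a tetraspanin gene, had values of 0.65, 0.38, 0.34 and 0.58 in the MycON arrays and -2.44, -2.49, -2.38, -2.06 and -1.38 in the MycOFF arrays. No array overlapped, the difference was 2.60 ± 0.42 (adjusted p = 0.000469), and the call was kept in all 21 alternative settings tried. Smpdl3b, a membrane phosphodiesterase gene, rose by 1.80 ± 0.34 (adjusted p = 0.00212). Their mean effects at the other times were 2.94 and 2.39.

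Some macrophage markers rose, and their mean was highest in 1 array. In macrophage markers, 3 of 19 tested genes rose, 0 fell and 15 lay above 0, with a median of 0.937. Lgals3, the galectin-3 gene, had values of 3.16, 0.16, 1.97 and 2.87 in the MycON arrays and -1.84, -3.29, -1.43, -1.25 and -3.00 in the MycOFF arrays, without overlap, and a difference of 4.17 ± 0.96 (adjusted p = 0.0132). Cd68, a protein gene of macrophage lysosomes, had values of 4.09, -0.17, 0.98 and 3.53 in the MycON arrays and -1.35, -0.72, -1.09, 0.21 and -1.33 in the MycOFF arrays. MycON exendin-4 replicate 1 was the highest array, the groups overlapped, and the difference was 2.92 ± 0.64 (adjusted p = 0.00969). Cd14, a receptor gene for bacterial lipopolysaccharide, rose by 1.76 ± 0.41 (adjusted p = 0.0146). The defining genes Csf1r, Adgre1 and C1qa differed by -0.17, 0.69 and 1.42 (adjusted p = 0.879, 0.403 and 0.389). The list mean was 2.06 and -0.103 with exendin-4 and -0.335 and 1.04 with water in the MycON arrays, and -0.307, 0.000307 and -0.866 with exendin-4 and -0.415 and -0.726 with water in the MycOFF arrays. Without MycON exendin-4 replicate 1 the median of macrophage markers was 0.21 with 1 call. Lgals3 lost its call without MycON exendin-4 replicate 1 (adjusted p = 0.0718) and without MycOFF water replicate 3 (adjusted p = 0.0754), Cd68 without MycON exendin-4 replicate 1 (adjusted p = 0.106) and without MycOFF water replicate 3 (adjusted p = 0.0559) and Cd14 without MycON exendin-4 replicate 3 (adjusted p = 0.119), without MycON water replicate 1 (adjusted p = 0.0783) and without MycOFF water replicate 3 (adjusted p = 0.0681). Without MycOFF water replicate 3 there were 0 calls in the list, and 5 without MycOFF exendin-4 replicate 2.

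Markers of other tissues had no called member, where 2.35% of all tested genes passed, and several moved with single arrays. Counts were 0 of 8 for lymphocyte markers, 0 of 11 for endothelial markers, 0 of 13 for stromal markers, 0 of 19 for acinar markers, 0 of 7 for duct markers, 0 of 6 for neural and glial markers, 0 of 10 for skeletal muscle markers, 0 of 7 for skin markers and 0 of 3 for fat and blood markers. The acinar marker mean was 2.33 and -0.201 with exendin-4 and 0.0058 and 2.01 with water in the MycON arrays, and 0.088, 0.12 and 3.05 with exendin-4 and 1.61 and -0.304 with water in the MycOFF arrays. The arrays high in acinar markers were in both conditions, MycON exendin-4 replicate 1, MycON water replicate 2, MycOFF exendin-4 replicate 3 and MycOFF water replicate 2. The stromal marker mean was 1.62 in MycON exendin-4 replicate 1 and between -1.08 and 0.39 in the other arrays. In MycOFF exendin-4 replicate 3 the means of skeletal muscle and skin markers were 3.6 and 2.57. The part of these markers in the differences above was not tested.

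Several named genes were read by more than 1 probe set, and the readings did not always match. Of the 78 named genes that passed, 44 had another probe set past the filter on spread, 12 of them with one of opposite sign, and in 22 none of the others reached 0.5 of the size. For Cdca8 the others differed by 0.68 and 4.31, for Cdt1 by 1.57 and -0.24, for Pclaf by 0.64 and -0.43, for Mcm6 by 2.51 and -0.06 and for Top2a by 0.49. For Rrm1 the other probe set differed by -0.12, for Cenpk by -0.21, and for Pttg1ip by 0.39 and -0.13. The probe set with the widest spread stood for its gene throughout.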

How the data were processed

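Per the labels' protocols, RNA of laser-captured islets was hybridised to Affymetrix arrays. The authors deposited log2 values of 45101 probe sets. Base 2 was inferred from their range, -12.3 to 12.8. MAS5 and GCRMA appear in the submitters' processing notes without a role, and the remaining steps upstream are not given in these sources. Each probe set had been centred to a median of 0 across the 60 arrays, so the values carry no level and weakly expressed genes could not be filtered by it. Probe sets with an interquartile range over the 52 kept arrays at or above the 40th percentile (0.101) were used instead, and the one of widest range stood for its gene, in place of a planned choice by highest mean. Of the probe sets, 34945 had 1 gene symbol, 932 several and 9160 none, 64 were controls, and 13176 of 18193 named genes were tested. Symbols were matched to RefSeq of GRCm38.p6 for 34741 probe sets, with 0 updated.

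The 52 kept arrays were fitted with limma 3.58.1 in R 4.3.3 (lmFit, eBayes), with data.table (version 1.17.8) for reading. At 16 h the model held MYC and injection as additive terms, and the other 16 groups had a mean each. Single injections and their interaction came from 20 group means. The fit had 33 residual and 2.74 prior degrees of freedom. Before use, the fit was tested on simulated data. Promoters were read from the RefSeq sequences, and figures drawn with matplotlib 3.10.9 in Python 3.11.15. Alternatives covered normalization, filters, probe set choice, array weights, the arrays in the fit, a replicate block and each array left out. The number of arrays limits the precision.

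Genes were named by a rule: the 12 largest rises and falls past the threshold, up to 4 members per list past it or the nearest if none passed, the 10 of smallest adjusted p in the comparison of times, and 44 fixed genes, 36 of them tested. Other list members are named with their values only. The members and lists were chosen with earlier results of these data known. Genes such as Trp53, Ccnb1, Ins1 and Mafa were not analysed here.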

Additional observations from a re-analysis of the deposited data

Results flagged for a closer look

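In groups of 4 MycON and 5 MycOFF arrays, 328 gaps of the highest or lowest array were tested with Dixon's criterion and 19 passed (5.79%), where chance gives about 1 in 20. In MycOFF exendin-4 replicate 3 these were the array's standard deviation (0.946, against 0.371 to 0.529 in the others), H2ax (-2.33), Slc16a1 (-2.56), Dhx40 (-1.81) and the skin gene Lor (4.81), and the means of beta cell transcription factors (-0.433), endoplasmic reticulum stress (-1.3) and skin markers (2.57). In MycOFF exendin-4 replicate 2 they were Top2a (-3.1), Rrm2 (-1.75), Acvr1c (-0.446), Cdkn2a (0.378) and the mean of ATF4 and CHOP targets (0.646). In MycOFF water replicate 2 they were Asf1b (-0.213), E2f8 (1.04) and Smpdl3b (-0.582), and in MycOFF exendin-4 replicate 1 Cdkn2c (1.03). In MycON exendin-4 replicate 3 they were Nfil3 (-0.116) and Cdkn2a (0.492).

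The MYC effect differed between 16 h and the mean of the other 4 times by limma's test of that difference in 13 genes. It was larger at 16 h for Cdkn2d (3.06), Pclaf (3.26), Cdkn2c (2.31), Ube2c (2.28), Glb1l2 (2.03), Kif22 (1.94), Nudt1 (1.85), Dhx40 (1.84), Ncald (1.73), Kifc1 (1.27) and Hnrnpl (0.934), and smaller for Ung (-3.12) and Tmem158 (-1.96).

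The 3 arrays of 16 h that the submitters dropped held marker signals above every kept MycOFF array. In MycON exendin-4 replicate 2 the means were 9.68 for skeletal muscle, 9.06 for skin, 5.34 for stromal, 3.03 for macrophage, 1.56 for neural and glial, 1.41 for fat and blood and 1.38 for lymphocyte markers. In MycON water replicate 3 they were 10.3 for skeletal muscle, 8.81 for skin, 5.18 for stromal, 2.09 for macrophage, 1.94 for neural and glial, 1.39 for lymphocyte and 1.38 for fat and blood markers. In MycOFF water replicate 1 they were 6.49 for lymphocyte and 3.63 for macrophage markers. Other lists were low in the same arrays, in the order MycON exendin-4 replicate 2, MycON water replicate 3 and MycOFF water replicate 1. Alpha, delta and PP markers had means of -4.8, -4.81 and -4.9, duct markers of -2.29, -2.27 and -3.61, and acinar markers of -2.67, -2.61 and -1.57, all below the 9 kept arrays.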

How the results depend on the processing

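The 310 calls of MYC on against off at 16 h were 225 after quantile normalization, 307 with each array centred on its median, 249 without a filter on spread, 306 with the filter at the 60th percentile, 302 with the mean over all probe sets, 286 with a 2-fold minimum, 331 without the injection term and 301 from 20 group means. They were 15 in the 9 arrays of 16 hours alone, 55 with all 60 arrays, 628 with array weights, and 100 to 725 when 1 array was left out. For 16 h against the other 4 times the 13 calls were 0 with all 60 arrays, 8 after quantile normalization, 4 without a filter, 117 with array weights, and 1 to 49 with 1 array left out. With water the 45 calls were 0 in the 9 arrays alone, 1 with all 60, 134 with array weights, and 5 to 197 with 1 array left out. With exendin-4 the 11 calls were 0 in the 9 arrays alone, 0 with all 60, 2 after quantile normalization, 7 with the filter at the 60th percentile, 1 with array weights, and 3 to 140 with 1 array left out. The interaction had 0 to 39 calls when 1 array was left out. Chosen after seeing the data, a fit of 8 arrays of 16 hours, without MycOFF exendin-4 replicate 3, called 5 genes, and 0 with water and 0 with exendin-4. Fits of 16 hours alone have fewer arrays to estimate the spread. The cause of the shifts in these counts was not tested. Of the 78 named genes that passed, 7 passed in the 9 arrays alone, 17 with all 60, 64 after quantile normalization, and 39 to 77 with 1 array left out. The difference of Xbp1 turned to 0.011 (adjusted p = 0.987 by limma) with the mean over all its probe sets.

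Whether equal replicate numbers pair the arrays could not be decided, because the residuals of such small groups are tied to each other by the fit. Over 9 pairs of equal number, residuals of the fit correlated at -0.456 to 0.214 (median 0.0577), with 3 pairs over 0.1. Over 21 pairs of unequal number they correlated at -0.379 to 0.273 (median -0.0132), with 5 pairs over 0.1. With a replicate block the counts were 123 for MYC on against off, 1 for 16 h against other times, 19 with water, 7 with exendin-4 and 41 of the 78 named genes.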

Other observations

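The gene groups in these paragraphs were picked after their values were seen, so their counts carry no test. Several genes of phagocytes and lysosomes outside the macrophage list rose at 16 h. The receptor genes Clec7a, Clec4n and Clec4d, which bind fungal sugars, differed by 3.09 ± 0.72 (adjusted p = 0.0132), 2.70 ± 0.71 (adjusted p = 0.0314) and 2.44 ± 0.66 (adjusted p = 0.0371) in limma. The acid phosphatase gene Acp5 differed by 2.45 ± 0.50 (adjusted p = 0.00525), the scavenger receptor gene Cd36 by 2.43 ± 0.48 (adjusted p = 0.00406), and the lysosomal protease genes Ctsd and Ctsb by 2.11 ± 0.50 (adjusted p = 0.0155) and 2.05 ± 0.42 (adjusted p = 0.00538). Of 5 tested lectin genes of that family 3 rose (median 2.44), and of 13 tested cathepsin genes 2 rose (median 0.635), against 2.11% of all tested genes. Clec7a had array values of 4.32 and 1.47 with exendin-4 and 0.90 and 1.93 with water in the MycON arrays, and -1.13, -1.36 and -1.41 with exendin-4 and -0.13 and -0.58 with water in the MycOFF arrays. Over the same arrays the macrophage marker mean was highest, 2.06, in MycON exendin-4 replicate 1, and the part of that array in these rises was not tested. The fatty acid binding protein gene Fabp5 rose by 2.89 ± 0.41 (adjusted p = 0.000102), and it passed with either injection.

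Further replication and chromatin genes rose that no list held. All 3 subunits of RNase H2, which removes ribonucleotides from DNA, rose: Rnaseh2a by 2.26 ± 0.56 (adjusted p = 0.0217), Rnaseh2b by 2.40 ± 0.44 (adjusted p = 0.00194) and Rnaseh2c by 2.24 ± 0.38 (adjusted p = 0.000767). Ezh2, the polycomb methyltransferase gene, rose by 2.64 ± 0.53 (adjusted p = 0.00497), Tcf19 by 3.72 ± 0.83 (adjusted p = 0.0103), Melk by 2.98 ± 0.74 (adjusted p = 0.0206) and Atad2 by 3.16 ± 0.71 (adjusted p = 0.0111). Among gene families, 4 of 12 tested tubulin genes rose, 6 of 19 Sm and LSm genes of the splicing machinery, 3 of 18 nucleoporin genes and 7 of 75 genes of the mitochondrial ribosome (median difference 0.984), while 2 of 38 proteasome genes rose (median 1.22). In these 5 families 0 genes fell by limma, and over all tested genes 2.11% rose and 0.243% fell. Mxi1, which encodes a MAX partner that opposes MYC, rose by 1.41 ± 0.36 (adjusted p = 0.0277), although none of the 12 tested members of the MYC, MAX and MXD list passed.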
